A study of Mus musculus with 4 samples.

Results

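The keratin genes were examined in EPH-4 cells, a non-malignant line of mouse mammary epithelial cells, with and without depletion of the glucocorticoid receptor (GR). A keratin was any gene whose array name was Krt followed by a digit. These were 44 genes of 28146 distinct gene names on the array, read by 52 of 41174 probes that were not controls. All 52 probes were also present in the deposited value table.

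EV-50 was a stable clone of EPH-4 that carried a puromycin selection marker and the empty H1-2 vector. The other line, shGR-19, was a stable clone with the same marker and an shRNA vector directed against GR. Both lines were kept in serum-free medium with puromycin at 2 µg/ml, and RNA of each line, at 300 ng per array, was read on 2 one-colour Agilent arrays that cover the mouse genome. The arrays are written EV1, EV2, SH1 and SH2 after the line and the replicate number of their labels, and for the scanner files these names are labels and no more. The study asked which genes depend on GR that has no hormone bound. Each line was 1 clone, and the sources used here do not state whether the duplicates were separate RNA preparations, so the spread between duplicates may be technical and does not cover differences between clones.

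Keratins are the intermediate filament proteins of epithelial cells. They polymerize only as pairs of an acidic type I and a basic type II chain, and most pairs mark a kind of epithelium. In the mammary gland, luminal cells make the simple epithelial pair Krt8 and Krt18 together with Krt7 and Krt19, while basal and myoepithelial cells make Krt5, Krt14 and Krt17. Of the 44 genes, 25 were type I and 19 were type II. The probe annotation, in mm9 coordinates, placed 24 of the type I genes on chromosome 11 and all 19 type II genes on chromosome 15. Krt18 was the type I gene on chromosome 15 (chr15:101862341-101862400), beside its partner Krt8 (chr15:101827346-101827405).

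For the 2 genes with the most direct bearing on the comparison, Krt14 and Krt13, the 60 bases of the array probes are shown, as read from the scanner files. All of them can be read in at least 1 frame without a stop codon. The Krt14 probe matches chr11:100064683-100065288 of mm9, a span longer than the probe, so that it crosses an intron. The first Krt13 probe matches chr11:99982471-99982530 without a gap, in the part of the gene that encodes the start of the helical rod, a stretch that is closely alike among type I keratins. The second Krt13 probe matches chr11:99980710-99980948, across an intron. No bases are in capitals because no part was singled out.
Krt14 probe: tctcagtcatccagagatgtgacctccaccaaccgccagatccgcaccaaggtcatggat
Krt13 first probe: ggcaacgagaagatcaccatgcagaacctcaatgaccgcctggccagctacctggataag
Krt13 second probe: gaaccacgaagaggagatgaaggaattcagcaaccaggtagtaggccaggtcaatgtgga

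The lines differed in another way in each of the 2 deposited sources, which bears on every result given here. The scanner files hold the intensity of each spot after background subtraction. The value table holds log2 values that the authors made from the same samples, centred on the median of each probe. Over the kept probes of the scanner files, the log2 differences between arrays labelled as duplicates had SDs of 0.69 (EV1 and EV2) and 0.73 (SH1 and SH2). Between lines, this SD was 0.38 for EV1 and SH1, 0.57 for EV2 and SH2, 0.64 for EV2 and SH1 and 0.80 for EV1 and SH2, so that 3 of the 4 lay closer than either pair of duplicates. For the columns of the value table this SD was 0.31 and 0.32 between duplicates and 0.61 to 0.62 between lines. Nr3c1, which encodes GR, had an intensity of 1845 and 2207 on EV1 and EV2, and of 1416 and 565 on SH1 and SH2. SH1 was thus 0.35 below EV1 on the log2 scale, and SH2 was 1.96 below EV2. Nr3c1 was lower in the shGR-19 columns of the value table (limma, log2 difference -1.94, adjusted p = 0.00215). Values from both sources, and from each pair of arrays with the same replicate number, are therefore given. Which of the scanner labels hold was not tested.

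A probe was kept when Agilent's software marked it as well above background on both arrays of either line. By this rule 24436 probes were kept, among them 28 keratin probes of 24 keratin genes. A further 7 keratins were well above background on some array without meeting the rule (Krt12, Krt15, Krt19, Krt23, Krt42, Krt78 and Krt83), and 13 were well above background on no array. The 13 were 9 hair and inner root sheath keratins (Krt25, Krt26, Krt27, Krt31, Krt33a, Krt34, Krt35, Krt36 and Krt82), the epidermal Krt2 and Krt76, the mucosal Krt4, and Krt222. Of the kept genes, 15 were well above background on all 4 arrays. Krt6a, Krt6b, Krt20, Krt28, Krt71, Krt75, Krt85 and Krt86, 8 genes in all, were missed on EV1, and Krt79 was missed on SH2. The 8 genes missed on EV1 thus met the rule through shGR-19 alone. EV1 had 21 keratin probes well above background, against 33 for EV2 and 32 and 29 for SH1 and SH2. The lowest signal counted as well above background was also highest there, at -4.88 relative to that array's 75th percentile on the log2 scale, against -5.95, -6.02 and -6.16 on the other arrays.

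**Figure D1:**
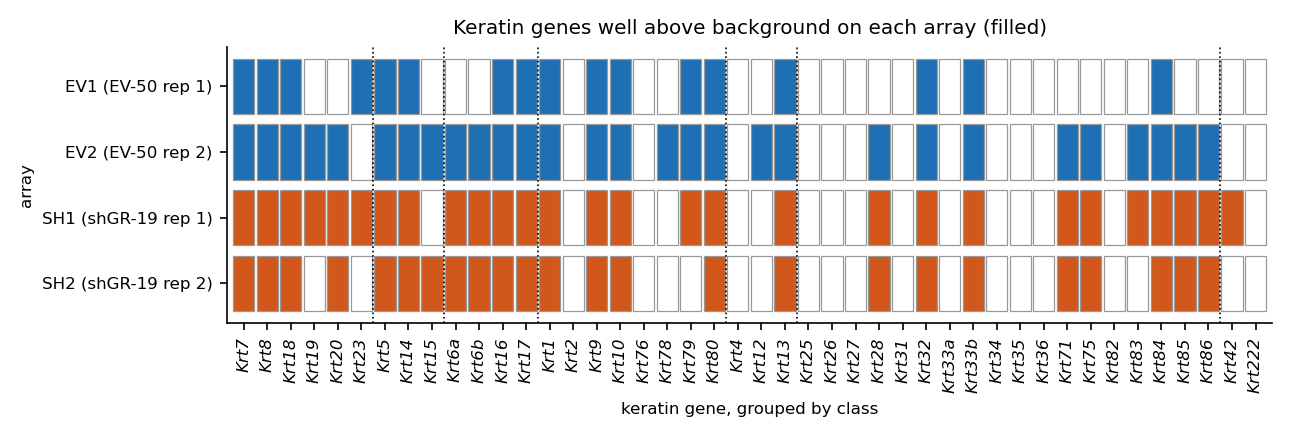
Detection of the 44 keratin genes (columns, grouped by class with dotted lines between classes) on the 4 arrays (rows), with a filled box where the probe used for the gene was well above background and an empty box where it was not. Krt7, Krt8, Krt18, Krt5 and Krt14 were filled on all 4 arrays, while most hair keratins were empty.

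Both luminal and basal keratins were measured in these cells. The simple epithelial keratins Krt7, Krt8 and Krt18 and the basal keratins Krt5 and Krt14 were well above background on all 4 arrays. So were the basal genes Trp63, which encodes the transcription factor p63, and Acta2, the smooth muscle actin of myoepithelial cells, and the luminal genes Epcam, Cldn3 and Gata3. Of 19 luminal mammary genes, 6 were well above background on no array (Elf5, Foxa1, Kit, Pgr, Spdef and Wfdc18). Of 18 basal and myoepithelial genes, 2 were not (Lgr5 and Oxtr). The arrays read the mean of all cells, so a mixture of luminal and basal cells and cells with both kinds of keratin cannot be told apart, nor can fewer cells of a kind and less RNA per cell.

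In the value table, 4 of the 24 kept keratins were lower in shGR-19 and 0 were higher, by limma with Benjamini-Hochberg adjustment over all kept probes and an adjusted p below 0.01. They were the basal keratin Krt14, the mucosal keratin Krt13, the wound keratin Krt17 and Krt79, a keratin of the hair canal and sebaceous duct. Over all kept probes 6.04% were lower and 5.53% higher by the same rule. With more than a 2-fold difference also required, 3 keratins were lower (Krt13, Krt14 and Krt79) and 0 higher, against 2.39% and 1.87% of all kept probes. Krt79 met the rule for kept probes through EV-50 alone, as it was not well above background on SH2. Among probes well above background on all 4 arrays, 2 keratins were lower by more than 2-fold. The median log2 difference of the 24 keratins was -0.22, and that of all kept probes was 0.0087. In the scanner files limma called 0 of the 24 keratins, and 0% of all kept probes. The smallest adjusted p was 0.957 over all kept probes, 207 probes had an unadjusted p below 0.05, and 1 of them was a keratin, Krt32. With any 1 column of the value table left out, 0 of all kept probes were called, keratins among them, so these fits bear on the whole array and not on keratins.

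**Figure D2:**
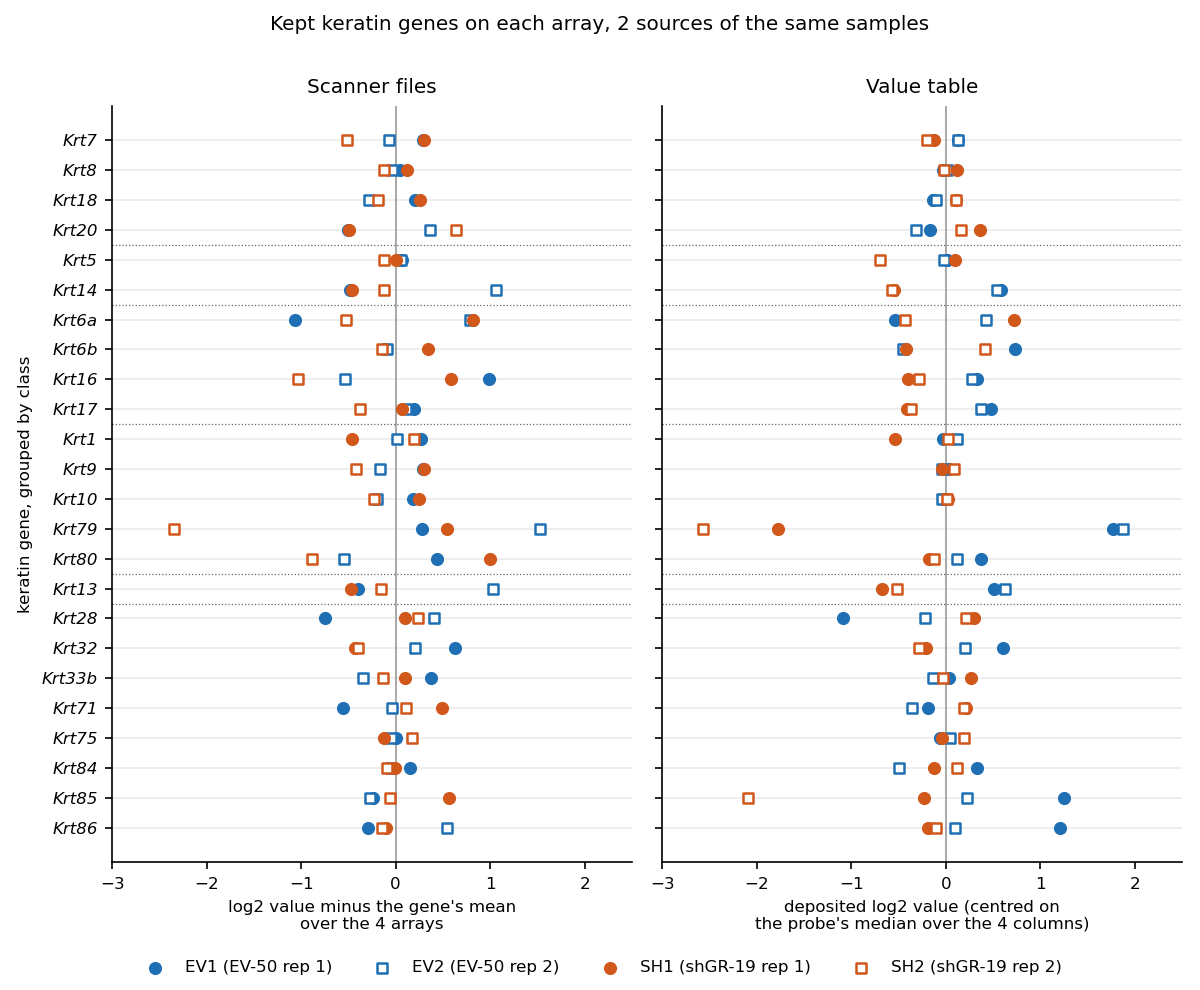
Each of the 24 kept keratins (rows, grouped by class) on each array, in the scanner files (left, log2 value minus the mean of the gene over the 4 arrays) and in the value table (right, deposited log2 value). Colours give the line and symbols the replicate number. The value table columns of a line lie together for Krt14, Krt13, Krt17 and Krt79, while in the scanner files EV2 stands above the other 3 for Krt14 and Krt13.

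Krt14, the type I partner of Krt5 in basal cells, had an intensity of 27400 on EV1 and 88729 on EV2. On SH1 and SH2 it had 27217 and 38672. EV2 was the high one, and EV1 and SH1 were 0.02 apart on the log2 scale. SH2 minus EV2 came to -1.19, smaller in size than the 1.54 between EV2 and EV1. Its value table columns were at 0.59 and 0.55 in EV-50 and at -0.55 and -0.57 in shGR-19. The lines did not overlap there, and the log2 difference was -1.13 (SE 0.0486, n = 2 per line, limma adjusted p = 0.00332), a level 2.18-fold lower.

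Krt5, the type II keratin that pairs with Krt14, had intensities of 79.9 and 88.0 in EV-50 and of 74.7 and 77.6 in shGR-19. All 4 arrays lay close together. The value table had it at 0.02 and -0.02 in EV-50 and at 0.10 and -0.70 in shGR-19, so that a single column stood low. Its log2 difference of -0.30 did not pass the test (SE 0.305, limma adjusted p = 0.499), and it was therefore not shown to change with its partner. Krt15, a keratin of basal and stem cell compartments, was well above background on EV2 and SH2 alone (30.7 in EV-50 and 44.2 in shGR-19, against 10.7 and 8.81 on EV1 and SH1). Its value table columns were at -0.53 and -0.26 in EV-50 and at 0.27 and 0.26 in shGR-19, the opposite direction to Krt14. Krt15 did not meet the rule for kept probes, so no difference is given for it.

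Krt13 is a type I keratin of the suprabasal layers of internal stratified epithelia, where it pairs with Krt4. The first probe shown above had intensities of 1870 and 5589 on EV1 and EV2 and of 1743 and 2461 on SH1 and SH2. Its value table columns were at 0.51 and 0.63 in EV-50 and at -0.67 and -0.51 in shGR-19. The lines did not overlap, with a log2 difference of -1.16 (SE 0.0874, limma adjusted p = 0.00620), 2.24-fold lower. The second Krt13 probe was well above background on no array (8.13, 4.29, 5.18 and 4.32 in the same order), and neither was the probe of its partner Krt4 (7.07 to 8.58). The first probe moved from array to array nearly as the Krt14 probe did. EV2 minus EV1 was 1.43 for it and 1.54 for the Krt14 probe. SH2 minus SH1 was 0.32 and 0.33, and SH2 minus EV2 was -1.18 and -1.19. Whether the first Krt13 probe also reads RNA of Krt14 or of another type I keratin was not tested, and the Krt13 call rests on that probe alone.

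The wound keratins are induced in injured or hyperproliferative epithelia, and Krt17 is also made by basal mammary cells. Of the 4 wound keratins, Krt17 was lower, and Krt6a, Krt6b and Krt16 were not called. Krt17 had intensities of 251 and 264 in EV-50 and of 225 and 188 in shGR-19, so that EV1 and EV2 lay above both SH1 and SH2. The log2 difference in the value table was -0.81 (SE 0.0624, limma adjusted p = 0.00637), 1.76-fold lower. The scanner files gave a smaller difference, -0.13 for SH1 minus EV1 and -0.48 for SH2 minus EV2.

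Krt16, the type I partner of Krt6a and Krt6b, had intensities of 716 and 278 on EV1 and EV2 and of 531 and 196 on SH1 and SH2. EV1 and SH1 were the high ones in both lines. The difference between lines was -0.40 and -0.50 in the 2 pairs of arrays, while the arrays of a line were 1.52 and 1.61 apart. Krt16 had a log2 difference of -0.64 in the value table and just missed the call (SE 0.0668, limma adjusted p = 0.0101). Krt6a and Krt6b were dim, with intensities from 6.20 to 24.8 and from 9.55 to 12.8, and their log2 differences of 0.20 and -0.14 had SEs of 0.567 and 0.546. Krt6a and Krt6b are near copies of each other, and how far each probe reads the other RNA was not tested.

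Krt79 was called lower in the value table, but only 1 of the shGR-19 arrays measured it. Its intensities were 44.6 and 117 on EV1 and EV2 and 52.5 on SH1, and it was not well above background on SH2 (7.98). That last array alone was low, and EV1 and SH1 differed by 0.26. Both shGR-19 columns of the value table were low, at -1.77 and -2.57 against 1.77 and 1.87 in EV-50. The fitted log2 difference was -3.99 (SE 0.306, limma adjusted p = 0.00634). No fold is given, since the SH2 signal was not well above background.

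**Figure D3:**
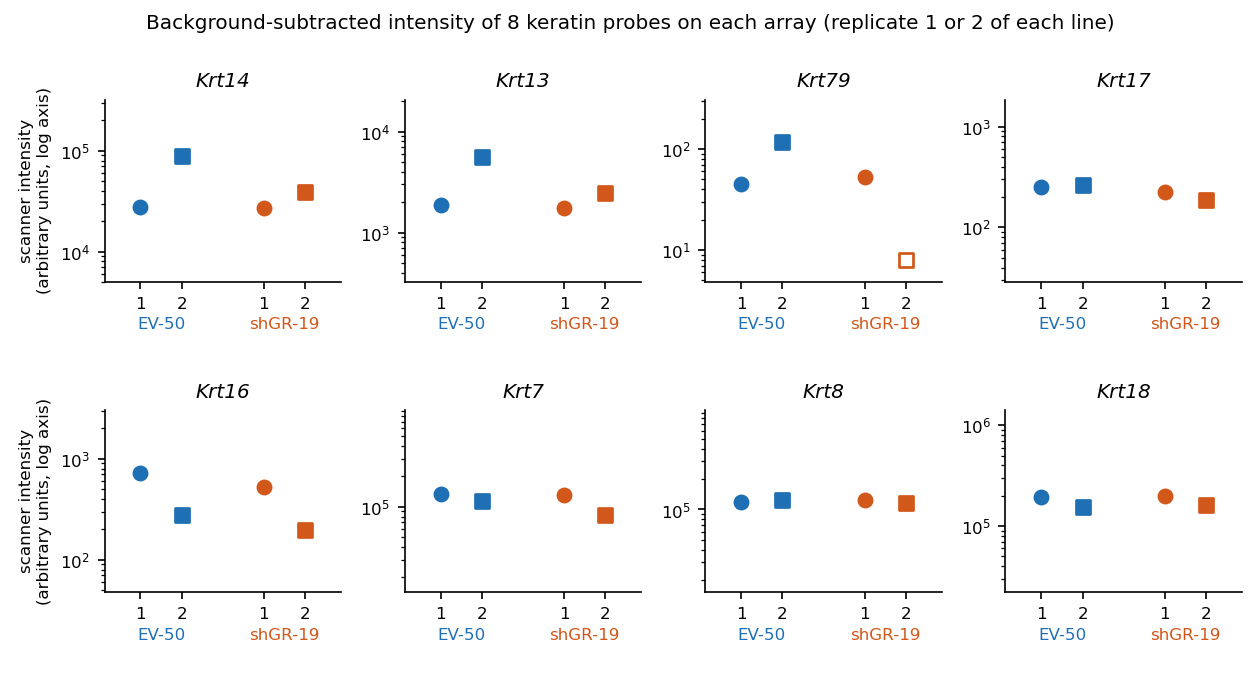
Background-subtracted scanner intensity (arbitrary units, log axis, each panel with its own range) of 8 keratin probes on EV1 and SH1 (circles) and on EV2 and SH2 (squares), with EV-50 in blue and shGR-19 in orange. The open symbol for Krt79, at 7.98, was not well above background. Krt14 and Krt13 share a high array, EV2, while Krt8 and Krt18 lie near the same height on all 4 arrays.

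Of the 4 kept keratins of simple and luminal epithelia, 0 were called in either source. Krt8, the type II keratin of all simple epithelia, had intensities of 118564 and 124270 on EV1 and EV2 and of 122979 and 116680 on SH1 and SH2. The 4 arrays overlapped, and the value table gave a log2 difference of 0.06 (SE 0.0705, limma adjusted p = 0.570). Its other probe gave 0.0040 (SE 0.0522). Krt18, its type I partner, had 193801 and 153305 in EV-50 and 197115 and 163367 in shGR-19, where EV1 and SH1 were the higher ones of each line. Its log2 difference in the value table was 0.23 (SE 0.0464, limma adjusted p = 0.0346).

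Krt7, a type II keratin of simple and ductal epithelia, had intensities of 132753 and 114307 in EV-50 and of 130617 and 83813 in shGR-19. SH2 was low, and EV1 and SH1 differed by 0.0063 on the log2 scale. Both Krt7 probes had small negative differences in the value table, -0.29 (SE 0.0525, limma adjusted p = 0.0277) and -0.34 (SE 0.0485, limma adjusted p = 0.0179). Krt20, a keratin of intestinal and urothelial cells, was dim (16.4 and 33.2 against 16.1 and 40.2), with a log2 difference of 0.50 (SE 0.102, limma adjusted p = 0.0351). Krt20 met the rule for kept probes through shGR-19 alone, as it was not well above background on EV1.

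Krt19, a luminal keratin, did not meet the rule for kept probes. It was well above background on EV2 (79.0) and SH1 (14.6), but not on EV1 (15.4) or SH2 (6.01). Its value table columns were at 1.42 and 1.21 in EV-50 and at -1.21 and -1.68 in shGR-19. With an array of each line not well above background, no difference is given for it. Krt23, the other simple keratin that was not kept, was well above background on EV1 and SH1 alone, at 39.0 in EV-50 and 14.3 in shGR-19, against 2.14 and 1.83 on EV2 and SH2.

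Of the remaining epidermal keratins, 0 were called besides Krt79, against 5.53% of all kept probes higher and 6.04% lower. Krt10, the type I keratin of suprabasal epidermis, had intensities of 1221 and 1046 in EV-50 and of 1251 and 1016 in shGR-19, with a log2 difference of 0.05 in the value table (SE 0.0464, limma adjusted p = 0.423). Krt1, its type II partner, was dim, at 27.2 and 25.4 against 16.0 and 28.5, with a difference of -0.30 (SE 0.223). The other Krt1 probe was well above background on SH2 alone (4.13 to 8.72 over the arrays). Krt10 too had a second probe, which was far dimmer (40.8 to 44.7), with a log2 difference of -0.0011 in the value table (SE 0.0681). Krt9, a keratin of footpad skin, had a difference of 0.02 (SE 0.0744). Krt80 had intensities of 142 and 80.2 in EV-50 and of 206 and 62.7 in shGR-19, so that the replicate number parted the arrays more than the line did. Its log2 difference in the value table was -0.39 (SE 0.106, limma adjusted p = 0.0631). Krt12, the corneal keratin, was well above background on EV2 alone, at 88.3 against 1.91 to 4.72 on the others. Krt78 too was well above background on that array alone (21.1).

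The hair and inner root sheath keratins build the hair shaft and its sheath and are not known as mammary proteins. Of 18 on the array, 8 were kept and 0 were called, against 5.53% of all kept probes higher and 6.04% lower. Krt32 was the keratin with the lowest p in the scanner files, with intensities of 89.2 and 74.0 in EV-50 and of 42.2 and 48.5 in shGR-19. EV1 and EV2 lay above both SH1 and SH2, with a log2 difference of -0.83 (SE 0.249, limma unadjusted p = 0.0258, adjusted p = 0.9999). The value table gave -0.65 for it (SE 0.160, limma adjusted p = 0.0526). Krt71 had a difference of 0.48 in the value table (SE 0.0763, limma adjusted p = 0.0217) and Krt28 of 0.91 (SE 0.330), with intensities of 9.32 to 18.8 and of 7.07 to 17.4. Both met the rule for kept probes through shGR-19 alone, as neither was well above background on EV1.

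Krt75 and Krt84 differed by 0.09 and 0.08 in the value table, with SEs of 0.107 and 0.329. Krt85 had -1.90 with an SE of 0.800, and Krt86 -0.80 with an SE of 0.419. The duplicate columns were far apart in both lines for Krt85, and in EV-50 alone for Krt86 (1.21 and 0.10). The sources also disagreed on the sign for Krt85, which was 0.51 higher on SH1 and SH2 in the scanner files. The probes of Krt83 and Krt86 share a run of 20 of 60 bases, while no other keratin probe shared a run longer than 16 bases with a probe of another gene. The 2 probes of Krt33b gave opposite signs in the value table, 0.17 (SE 0.134) for the brighter and -0.51 (SE 0.173) for the other, and neither was called. Krt42 was well above background on SH1 alone (14.3).

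The array pairs show how far the keratin differences rest on the replicate number. Of the 24 kept keratins, 6 were lower and 4 higher on shGR-19 in both pairs of arrays, and 14 had opposite signs in the 2 pairs. For 16 of the 24, the arrays of at least 1 line lay farther apart than the larger difference between the lines within a pair. The share over all kept probes is not given for these counts, so they do not set keratins apart. The SDs over all kept probes were 0.69 and 0.73 within lines, and 0.38 and 0.57 between same-numbered arrays. The sign of the value table was shared by 14 keratins in the pair of EV1 and SH1 and by 16 in the pair of EV2 and SH2. Over all kept probes, these shares were 52.1% and 80.3%.

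Other genes of luminal and basal identity were taken from lists written from general knowledge. The 13 kept luminal genes had a median log2 difference of 0.11 in the value table. By the rule that called 5.53% of all kept probes higher and 6.04% lower, 2 of them were higher and 0 lower. They were Areg, which encodes the EGF receptor ligand amphiregulin (0.99, SE 0.0502, limma adjusted p = 0.00388), and Gata3, the transcription factor of luminal cells (0.67, SE 0.0506, limma adjusted p = 0.00628). Epcam and Cldn3 had differences of -0.03 and 0.06. Ehf, an epithelial ETS factor, was not called by its brightest probe (limma adjusted p = 0.0291), while another of its probes was lower (-1.88, limma adjusted p = 0.00901). For Areg and Gata3, SH1 minus EV1 was -0.05 each, and SH2 minus EV2 was 0.89 and 0.50.

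Of 14 kept basal and myoepithelial genes, 4 were higher and 1 lower in the value table, against 5.53% and 6.04% of all kept probes. The median of the 14 was 0.11. Mme, a surface peptidase also known as CD10, was 2.16 higher on the log2 scale (SE 0.138, limma adjusted p = 0.00497). Vim, the intermediate filament of mesenchymal and many basal cells, was 1.82 higher (SE 0.183, limma adjusted p = 0.00947), and Sparc, a matrix glycoprotein, 1.29 higher (SE 0.0504, limma adjusted p = 0.00306). Nrg1, a ligand of ERBB receptors, was 0.63 higher, and Egfr, the EGF receptor, fell by 0.97 (SE 0.0547, limma adjusted p = 0.00427). Some probes of Nrg1 and Egfr were not called but had the same sign. The basal genes thus did not move with Krt14 in a single direction. Trp63 had -0.40 (SE 0.0683, limma adjusted p = 0.0248) and Acta2 -0.17 (SE 0.0638), neither of them called. In the scanner files 0 genes of either list were called, and 0% of all kept probes.

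Vim and Sparc are also made by fibroblasts, and the genes listed for fibroblasts moved in the same direction in the value table. Of 8 such genes, 3 were kept and all 3 were higher, against 5.53% of all kept probes. On the log2 scale Col1a2 was higher by 3.27, Pdgfrb by 2.03 and Pdgfra by 1.16. Dcn was well above background on no array, and Col1a1 was well above it on EV2 and SH2 alone (45.5 in EV-50 and 2193 in shGR-19). The summed intensity of the 8 genes was 1068 and 3826 on EV1 and EV2 and 972 and 28815 on SH1 and SH2. Of 10 endothelial, adipocyte and immune genes, 6 were kept and 0 were called, against 5.53% of all kept probes higher and 6.04% lower. The sums of the 10 were 363 to 484 in EV-50 and 374 to 439 in shGR-19. What part such genes have in the keratin differences was not tested.

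**Figure D4:**
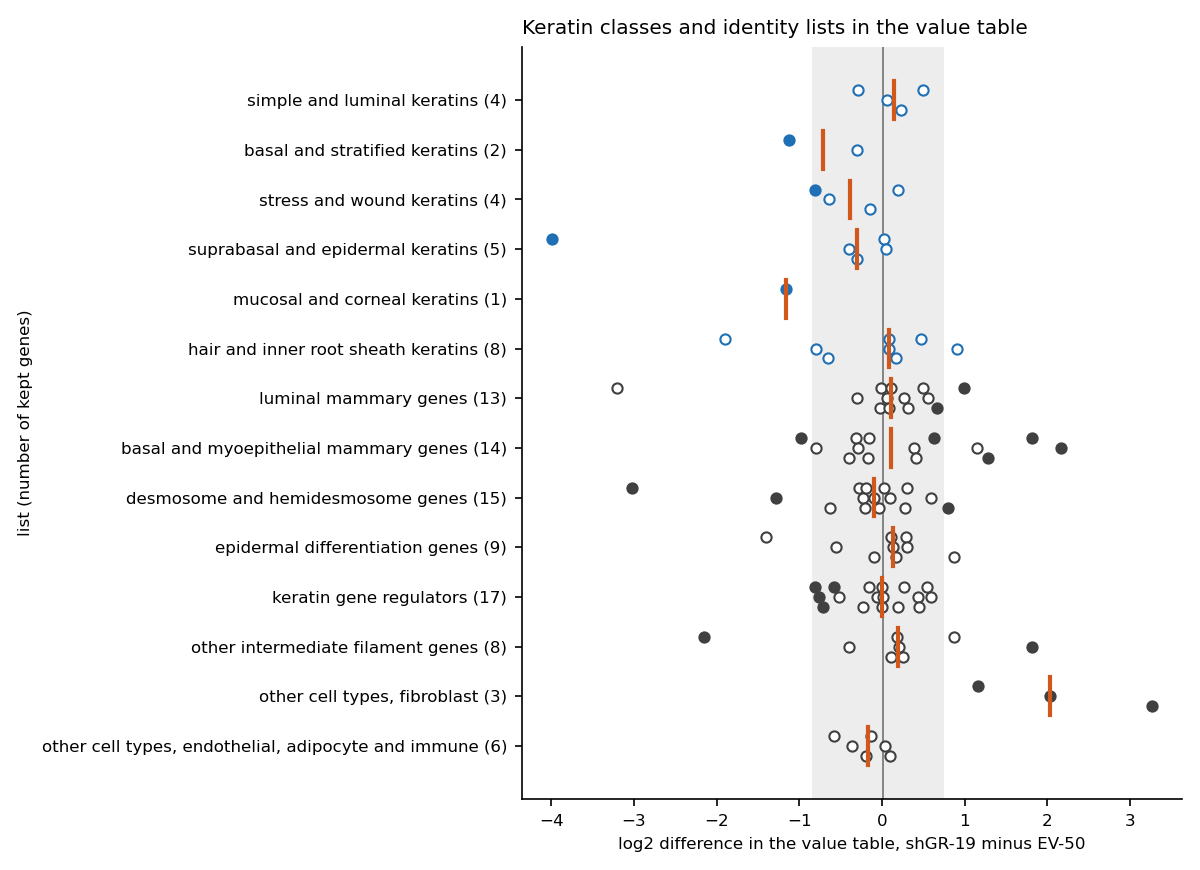
Log2 difference in the value table (shGR-19 minus EV-50) of each kept gene, by keratin class (blue) and by list of other genes (dark grey), with filled symbols for genes called at an adjusted p below 0.01 and an orange bar at the median. The grey line is the median of all kept probes (0.0087) and the band their 5th to 95th percentile (-0.84 to 0.75). The called keratins all lie left of 0, while called basal and myoepithelial genes lie on both sides.

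Keratin filaments are anchored at desmosomes, between cells, and at hemidesmosomes, on the basement membrane. Of 15 kept genes of these junctions, 1 was higher and 2 were lower in the value table, against 5.53% and 6.04% of all kept probes. The median of the 15 was -0.09. The desmosomal cadherins Dsg2 and Dsc2 fell by 3.02 (SE 0.0925, limma adjusted p = 0.00250) and by 1.28 (SE 0.0865, limma adjusted p = 0.00535). Other probes of Dsc2 were not called but had the same sign. Dsg2 had intensities of 164 and 228 on EV1 and EV2 and of 161 and 39.0 on SH1 and SH2, so that SH2 alone was low. Dst, a linker of filaments to hemidesmosomes, was 0.80 higher (SE 0.0595, limma adjusted p = 0.00611). Dsp, which encodes the desmosomal linker desmoplakin, was not called by its brightest probe (-0.63, limma adjusted p = 0.0163), while another of its 4 probes was lower (limma adjusted p = 0.00365).

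Of 9 kept genes of epidermal differentiation, 0 were called, against 5.53% of all kept probes higher and 6.04% lower. A further 8 of that list were well above background on no array, among them Ivl and Flg. Lor, which encodes the cornified envelope protein loricrin, just missed the call at -1.40 (SE 0.148, limma adjusted p = 0.0103). Of 17 kept regulators of keratin genes, 0 were higher and 4 were lower in the value table, against 5.53% and 6.04% of all kept probes. The median of the 17 was 0.0045. Cebpb, a CCAAT-binding factor, fell by 0.81, Grhl1, a grainyhead-like factor, by 0.76 and Notch1, a receptor of the Notch pathway, by 0.58 on the log2 scale. Their limma adjusted p-values were 0.00492, 0.00837 and 0.00914. The second probe of Notch1 was not called. For these 3 genes, SH1 minus EV1 was 0.11 to 0.21 and SH2 minus EV2 was -0.88 to -0.70.

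The 250 bases before the start of the called keratins Krt14 and Krt13 are shown to set their control regions beside the array values. They come from RefSeq (GRCm38.p6), in which 29 of the 44 keratins had an entry. Capitals mark AGAACA, a short motif of GR sites, or TGANTCA, the AP-1 motif, both searched on both strands. Krt14 lies at chr11:100206031-100206280 on the minus strand and held neither motif. Krt13 has 2 starts on the minus strand. The first, chr11:100121567-100121816, held AGAACA at -212 and TGANTCA at -196, counted from the start, and the second, chr11:100120578-100120827, held TGANTCA at 2 places.
Krt14: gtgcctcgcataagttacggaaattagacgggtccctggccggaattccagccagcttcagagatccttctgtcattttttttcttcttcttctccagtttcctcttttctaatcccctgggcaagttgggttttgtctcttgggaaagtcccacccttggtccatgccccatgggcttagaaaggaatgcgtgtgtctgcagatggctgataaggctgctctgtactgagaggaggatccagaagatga
Krt13 first start: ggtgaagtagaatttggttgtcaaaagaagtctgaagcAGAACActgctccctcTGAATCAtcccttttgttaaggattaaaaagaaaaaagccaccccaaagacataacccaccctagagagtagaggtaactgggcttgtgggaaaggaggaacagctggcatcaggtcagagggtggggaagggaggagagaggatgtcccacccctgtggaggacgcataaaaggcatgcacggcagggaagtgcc
Krt13 second start: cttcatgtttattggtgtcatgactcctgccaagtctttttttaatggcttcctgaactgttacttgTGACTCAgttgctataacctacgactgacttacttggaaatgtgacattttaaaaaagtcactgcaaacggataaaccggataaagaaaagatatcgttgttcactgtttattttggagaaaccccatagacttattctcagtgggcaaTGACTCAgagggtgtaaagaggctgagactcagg

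Among 30 keratin promoters, 5 held AGAACA, while 16.1% of 32851 promoters of the same length did. The AP-1 motif was held by 2 keratin promoters, both of Krt13, against 6.75% of all promoters. The full palindromic GR site, which joins the short motif and its reverse complement over a short fixed gap, was held by 0 keratin promoters and by 0.00913% of all. Krt79 held none of these motifs, and Krt17 had no entry. TATAAA on the coding strand was held by 13 keratin promoters, mostly of hair keratins, against 7.59% of all promoters, and by neither Krt14, Krt13 nor Krt79.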

How the data were processed

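RNA from 2 EV-50 and 2 shGR-19 samples was measured on 4 one-colour Agilent arrays. The arrays shared 1 slide and 1 scan, so neither could be fitted as a batch. No batch of culture, RNA preparation or labelling was named in the labels used here. The replicate number was fitted as a block among the alternatives. The authors deposited the intensity of each spot, background-subtracted in Agilent Feature Extraction 10.5.1.1 and not scaled between arrays. A second file, likewise deposited, holds log2 values from GeneSpring with each probe centred on its median. Probe coordinates are those of mm9, as in the scanner files.

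Scanner intensities were used as log2 processed signal. The 75th percentile of each array was subtracted, and repeated spots were averaged without those marked as outliers. Kept probes were well above background on both arrays of either line. Both sources were fitted with limma 3.58.1 in R 4.3.3 (lmFit, eBayes), with Benjamini-Hochberg adjustment over the 24436 kept probes. Calls needed an adjusted p below 0.01, and for some counts more than a 2-fold difference, the thresholds of the study's methods, which name no adjustment. A gene is given by its brightest kept probe. Precision is limited by the number of arrays. The fits were run on simulated data to check the sign and size of added differences. That check set no limit on how many of them were called.

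The keratins and lists were chosen with earlier results of these data known, and the lists were written from general knowledge. Every kept keratin is named, and of each list the called members with the largest differences (at most 4), except 1 gene that is not reported here. Other genes named from the lists were chosen after their values were seen. The alternatives were normexp background correction (offset 50), quantile normalization, other percentiles and filters, a trended robust prior in eBayes (statmod 1.5.0), a block for the replicate number, each array left out in turn, a plain equal-variance test, an adjusted p below 0.05 and the mean over the probes of a gene. Where an array was left out, the single array of its line was taken to vary as the other line did.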

Additional observations from a re-analysis of the deposited data

How the results depend on the processing

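The 4 keratins called lower in the value table (3 over 2-fold) became 0 (0 over 2-fold) when all probes were kept, when the replicate number was a block, under a plain equal-variance test with adjustment, in the scanner files, and without each column in turn (0 to 0 for both counts). Without each column in turn, 0 of 24436 probes were called over the whole array, with 9066 to 9827 at an unadjusted p below 0.05. The 0 called lower in the scanner files became 4 (3 over 2-fold) in the value table. The 0 keratins called higher in the value table became 1 with a trended robust prior, 1 under the plain test without adjustment and 3 at an adjusted p below 0.05, where the 4 called lower became 6, 4 and 6. The 3 were Krt18, Krt20 and Krt71, of which Krt20 and Krt71 met the rule for kept probes through shGR-19 alone. Over the whole array, 2827 probes were called in the value table, 43 with all probes kept, 4873 with probes well above background on all 4 arrays, 8034 with the trended robust prior, 23 under the plain test with adjustment and 4571 without. For same-numbered arrays the labels give a shared number and do not state what else was shared. The deviations of these arrays from the line means correlated at r = 0.574 in the scanner files and 0.0558 in the value table, over 2 pairs. The replicate block left 0 calls by limma in the value table, with 12085 probes at an unadjusted p below 0.05.

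The log2 differences of single keratins that changed sign were these. With EV2 and SH2 alone, the scanner files gave 0.18 for Krt1, -1.31 for Krt6a, -0.056 for Krt6b, -0.035 for Krt10, -0.17 for Krt28, 0.21 for Krt33b and -0.35 for Krt80. Normexp correction gave -0.031 for Krt28 and -0.097 for Krt75. Krt8 came to 0.0023 with the percentile of detected probes and 0.00045 with the mean of its probes. In place of the scanner values, the value table gave -0.14 for Krt6b, 0.058 for Krt8, 0.024 for Krt9, 0.17 for Krt33b, -0.39 for Krt80, 0.084 for Krt84 and -1.90 for Krt85, where the scanner files had 0.20, -0.00060, -0.12, -0.034, 0.11, -0.092 and 0.51. The mean of its probes gave -0.17 for Krt33b in the value table.

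With 1 array left out, scanner differences ran from -0.61 to 0.050 for Krt1, -0.64 to 1.21 for Krt6a, -0.047 to 0.44 for Krt6b, -0.62 to 0.19 for Krt7, -0.13 to 0.12 for Krt8, -0.48 to 0.24 for Krt9, -0.22 to 0.25 for Krt10, -1.34 to 0.090 for Krt13 and -1.36 to 0.19 for Krt14. They ran from -1.25 to 0.36 for Krt16, -0.17 to 0.32 for Krt18, -0.43 to 0.71 for Krt20, -0.24 to 0.91 for Krt28, -0.39 to 0.33 for Krt33b, -0.095 to 0.20 for Krt75, -0.84 to 1.06 for Krt80, -0.19 to 0.0083 for Krt84 and -0.67 to 0.17 for Krt86. Krt13, Krt14 and Krt86 changed sign only without EV2. With 1 column of the value table left out, they ran from -0.70 to 0.10 for Krt5, -0.37 to 0.78 for Krt6a, -0.73 to 0.45 for Krt6b, -0.010 to 0.13 for Krt8, -0.044 to 0.092 for Krt9, -0.030 to 0.21 for Krt75 and -0.33 to 0.50 for Krt84.

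The median log2 difference of all keratins moved to -0.063 in the scanner files and -0.29 with all probes kept, with a range of -0.30 to -0.15 over columns left out. That of basal and myoepithelial genes moved to -0.17 with all probes kept. Desmosome genes moved to -0.019 in the scanner files and -0.061 with all probes kept (-0.16 to -0.035 over columns left out), and epidermal genes to -0.11 with all probes kept (0.024 to 0.16). Luminal genes moved to 0.23 and 0.085 (0.14 to 0.27), the endothelial, adipocyte and immune list to 0.0031 in the scanner files (-0.22 to -0.066) and the fibroblast list to 1.18 and 1.41. Regulators ranged from -0.087 to 0.033 over columns left out.

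Of the results under alternative settings, 278 in the scanner files and 223 in the value table kept their direction and side of the threshold, 45 and 19 changed direction, 4 and 5 passed the threshold newly, and 32 in the value table no longer passed it. The cause was not tested. With 2 arrays of each line, the keratin calls rest on the value table, since the scanner files gave none. Dim probes limit the rest, since keratins that were well above background on no array have no measured difference.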

Other observations

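Other intermediate filament genes were measured beside the keratins. Of 8 kept, 1 was higher in the value table (Vim, given with the basal genes) and 1 lower, against 5.53% and 6.04% of all kept probes. Nefh, which encodes the heavy neurofilament chain, fell by 2.15 on the log2 scale (SE 0.0692, limma adjusted p = 0.00254). Its intensities were 678 and 1001 on EV1 and EV2 and 699 and 218 on SH1 and SH2, so that SH2 alone was low. The lamins of the nuclear envelope, Lmna, Lmnb1 and Lmnb2, had differences of 0.26, 0.11 and 0.21 and were not called. Of the 15 genes listed, 6 were well above background on no array, among them Des and Prph.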
